A study of Mus musculus with 8 samples.

Results

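The CC chemokine ligands are small secreted proteins with adjacent cysteines near their start that direct the migration of leukocytes, and 10 of them, Ccl2, Ccl3, Ccl4, Ccl5, Ccl6, Ccl7, Ccl9, Ccl12, Ccl22 and Ccl24, were followed here out of 19938 genes measured. They were chosen by name, with earlier results of these data known. Each was represented by the probe set annotated to that gene alone with the highest mean over all 8 arrays, and all 10 had exactly 1 such probe set. RNA came from microglia, the resident macrophages of the brain, of Swiss Webster mice at 17 weeks of age, all labelled female. There were 4 samples from MFP2 knockout mice, which lack the peroxisomal beta-oxidation enzyme encoded by Hsd17b4, and 4 from wild-type controls. The labels name no treatment, and do not say that the knockout is limited to a cell type. The values describe the sorted population of whole brain that is high in CD11b and intermediate in CD45. Nothing in the labels ties each numbered sample to its own animal, and p-values therefore speak only of the spread among the samples, which may be technical.

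CC chemokines bind receptors coupled to inhibitory G proteins, and the same receptor often serves several ligands. In mice Ccl2, Ccl7 and Ccl12 act on Ccr2 and draw monocytes, Ccl3, Ccl4 and Ccl5 draw monocytes and T cells, and the rodent ligands Ccl6 and Ccl9 act on Ccr1. Ccl22 acts on Ccr4, and Ccl24 on Ccr3, the main receptor of eosinophils. Microglia are a source of several of these ligands in injured or inflamed brain, and Ccl3 and Ccl4 are known to be induced quickly by inflammatory stimuli and by the handling of the cells.

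Most of the members are neighbours in the genome. By the gene order of the RefSeq annotation of assembly GRCm38.p6, Ccl2 and Ccl7 follow each other directly and Ccl11 lies between Ccl7 and Ccl12, while Ccl5, Ccl9, Ccl6, Ccl3 and Ccl4 form another unbroken run; both groups are on chromosome 11. Promoter windows, from 250 bases before to 50 bases after the annotated start, were found in RefSeq's GRCm38.p6 sequence for 5 of the 10 members. Those of 3 genes that rose in knockouts, Ccl3, Ccl6 and Ccl12, are shown with that of Ccl9, the direct neighbour of Ccl6, which did not pass the test. The windows are Ccl3 at chr11:83649329-83649628 on the minus strand, Ccl6 at chr11:83593038-83593337 on the minus strand, Ccl9 at chr11:83578587-83578886 on the minus strand and Ccl12 at chr11:82101595-82101894 on the plus strand. Capitals mark matches on either strand to any of 4 motifs, which were chosen with earlier results of these data known.
Ccl3: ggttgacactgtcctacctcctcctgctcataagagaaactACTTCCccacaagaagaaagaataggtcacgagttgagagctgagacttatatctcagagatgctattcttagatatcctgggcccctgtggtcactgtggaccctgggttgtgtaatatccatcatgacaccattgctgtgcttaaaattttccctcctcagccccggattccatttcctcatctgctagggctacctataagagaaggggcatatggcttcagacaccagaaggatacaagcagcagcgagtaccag
Ccl6: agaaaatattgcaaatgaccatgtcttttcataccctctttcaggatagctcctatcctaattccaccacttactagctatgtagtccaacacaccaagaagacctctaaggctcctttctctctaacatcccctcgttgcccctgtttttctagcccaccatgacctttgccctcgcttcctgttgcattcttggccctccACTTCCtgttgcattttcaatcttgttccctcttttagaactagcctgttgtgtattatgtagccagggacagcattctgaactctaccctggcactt
Ccl9: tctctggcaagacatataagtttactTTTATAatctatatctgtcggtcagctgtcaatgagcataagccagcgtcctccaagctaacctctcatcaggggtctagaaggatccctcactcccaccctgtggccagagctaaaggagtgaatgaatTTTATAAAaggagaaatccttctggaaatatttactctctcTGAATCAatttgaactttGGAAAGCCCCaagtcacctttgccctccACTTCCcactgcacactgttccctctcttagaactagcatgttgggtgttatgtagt
Ccl12: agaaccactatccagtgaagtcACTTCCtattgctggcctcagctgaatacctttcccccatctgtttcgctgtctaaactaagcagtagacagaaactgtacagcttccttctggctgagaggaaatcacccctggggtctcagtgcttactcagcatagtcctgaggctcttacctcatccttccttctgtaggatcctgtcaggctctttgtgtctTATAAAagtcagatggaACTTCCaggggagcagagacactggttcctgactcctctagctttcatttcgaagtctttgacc
The core bound by PU.1, the factor that directs the macrophage lineage, was searched as GGAAGT and stood in all 4 windows shown and in that of Ccl22, against 23.8% of the 32851 windows in the table. The AP-1 motif TGANTCA and the NF-kB consensus were found among these 5 windows in that of Ccl9 alone, against 7.81% and 4.51% of all windows. TATAAA, the core of the TATA box, was present for Ccl9 and Ccl12, against 13.6%, with overlapping matches in the Ccl9 window. A match is a run of letters in this window and does not show a bound site.

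The arrays were checked before the ligands were compared. Hsd17b4 ran from 7.82 to 9.09 on the log2 scale in controls and from 4.76 to 7.20 in knockouts, with knockout 2 the highest knockout array. Xist and the Y-linked Eif2s3y put control 1 at odds with its female label, at 6.80 and 8.14 against 10.82 or more and 2.99 or less in the other controls. On the first principal component over all genes, control 3, at -9.62, was the control array closest to the knockouts. The defining microglial genes Tmem119, P2ry12 and Cx3cr1 were abundant in every array, with means of 12.49, 11.10 and 12.79 in controls and 11.83, 10.65 and 12.29 in knockouts. Of 9 microglia markers 8 were lower in knockouts. Array medians lay between 6.03 and 6.15, and 4 arrays per group limit the precision of every comparison.

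Of the 10 ligands, 5 were higher in knockout microglia, 1 was lower and 4 did not pass the test. Ccl4, Ccl12 and Ccl3 rose by 1.54 ± 0.38 (SE), 1.47 ± 0.28 and 1.36 ± 0.30 on the log2 scale, that is 2.92-fold, 2.76-fold and 2.56-fold, while Ccl5 and Ccl6 rose by 0.91 ± 0.19 and 0.81 ± 0.14 and Ccl24 fell by 0.95 ± 0.11. Calls, and the words rose and fell, rest on a limma adjusted p under 0.05 (Benjamini-Hochberg, over all 19938 genes). At that threshold 5.38% of all genes were higher, 4.17% lower and 9.55% called in either direction. The median change of the 10 ligands was 0.86, and that of all genes tested was -0.022. Because the ligands were chosen with earlier results of these data known, the values for all genes give scale and are not a test. Of the ligands, 3 were both called and at least 2-fold different, as were 1.24% of all genes. The knockouts lay above all controls for 4 ligands and below them for 1, against 7.09% and 6.92% of all genes. In a bulk sample a change in the share of cells that express a ligand cannot be told apart from a change in RNA per cell.

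**Figure D1:**
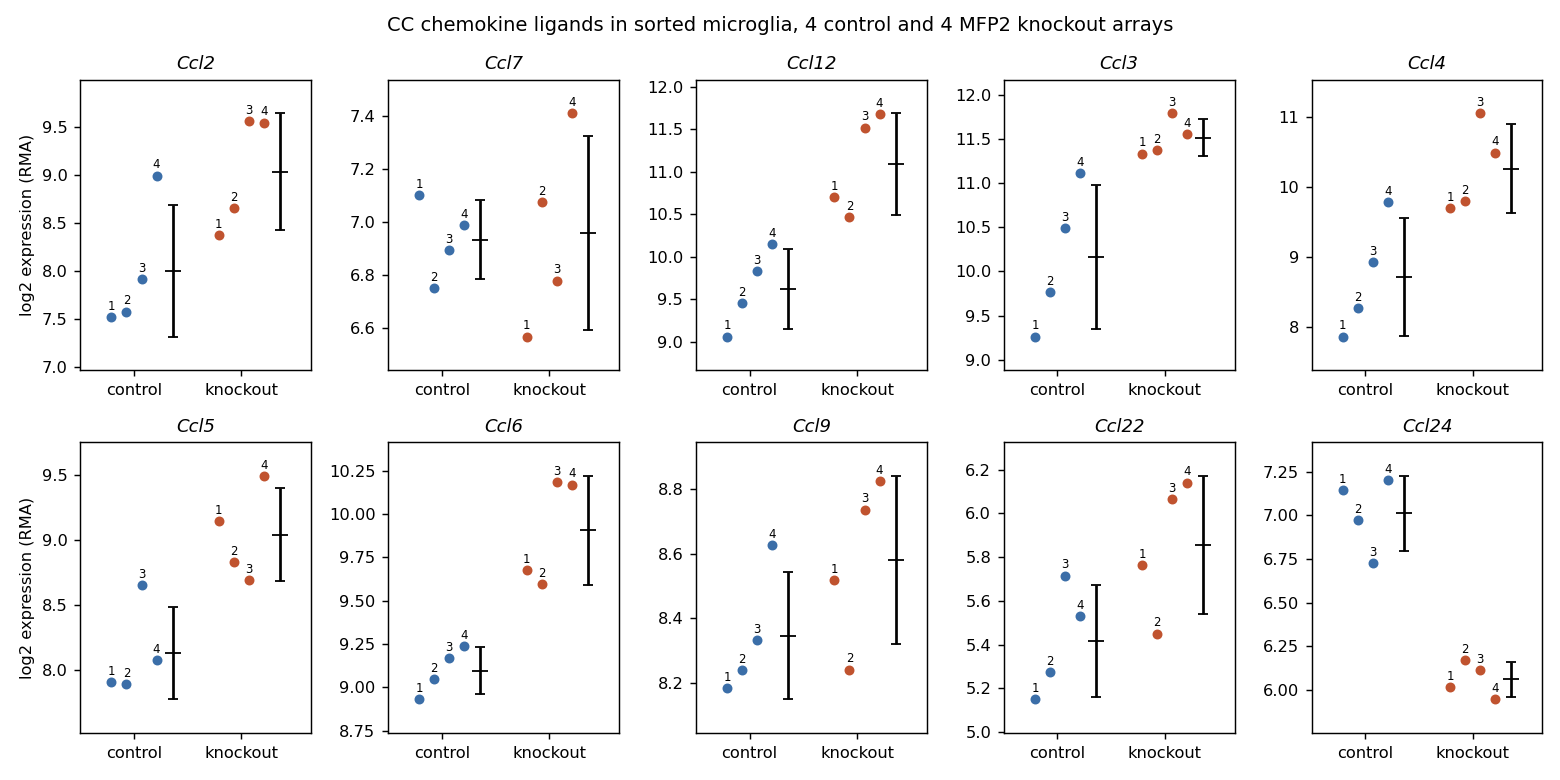
Log2 expression (RMA) of the 10 CC chemokine ligands in each array, 4 control (blue) and 4 MFP2 knockout (orange), with the number of each sample beside its point and the group mean ± SD as a bar; each panel has its own vertical axis, which does not start at 0. Every knockout point lies above every control point for Ccl3, Ccl5, Ccl6 and Ccl12 and below it for Ccl24, and the controls spread widely for Ccl2, Ccl3 and Ccl4.

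Of the monocyte attractants Ccl2, Ccl7 and Ccl12, Ccl12 passed the test. In sample order 1 to 4, which carries no rank, Ccl12 read 9.06, 9.45, 9.83 and 10.15 in the controls and 10.70, 10.46, 11.52 and 11.68 in the knockouts. Even the lowest knockout array lay above the highest control, and the means were 9.62 ± 0.47 (SD, n = 4) and 11.09 ± 0.60 (n = 4; limma adjusted p = 0.00524). The increase of Ccl12 ranged from 1.27 to 1.67 when any 1 array was left out, and the call held each time. Ccl2, the best-known ligand of Ccr2, read 7.51, 7.57, 7.91 and 8.99 in the controls and 8.37, 8.65, 9.55 and 9.54 in the knockouts. Control 4 lay above knockout 1 and knockout 2, and the groups overlapped. The change of Ccl2 was 1.03 ± 0.33 (SE) and did not pass the test (limma adjusted p = 0.0752), with a 95% confidence interval of 0.31 to 1.75. It did pass without control 4, at 1.36 (limma adjusted p = 0.0106), and without knockout 1, at 1.25 (limma adjusted p = 0.0320). Ccl7 read 7.10, 6.75, 6.89 and 6.99 in the controls and 6.57, 7.07, 6.78 and 7.41 in the knockouts. The ranges were interleaved, with a change of 0.025 and a 95% confidence interval of -0.32 to 0.37 (limma adjusted p = 0.958).

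The inflammatory ligands Ccl3, Ccl4 and Ccl5 rose, Ccl3 and Ccl4 with wide spread among the controls and Ccl5 with less. Ccl3 read 9.26, 9.77, 10.49 and 11.11 in the controls and 11.33, 11.38, 11.79 and 11.56 in the knockouts. Its control values covered 1.85 log2 units and its knockout values 0.46, and the gap between the groups was the step from control 4 to knockout 1. The call of Ccl3 (limma adjusted p = 0.0139) was lost without control 2 (change 1.22, limma adjusted p = 0.0605), and under a second quantile normalization or an intensity trend with a robust prior. Ccl4 read 7.87, 8.28, 8.93 and 9.78 in the controls and 9.70, 9.80, 11.05 and 10.49 in the knockouts. Knockout 1 lay just below control 4, so Ccl4 was the only called ligand whose groups overlapped (limma adjusted p = 0.0213). Its call was lost without control 1 (limma adjusted p = 0.0601), control 2 (0.0835), knockout 3 (0.0658) or knockout 4 (0.0562), with changes of 1.26 to 1.47, and with the intensity trend and robust prior. Ccl5 read 7.91, 7.89, 8.65 and 8.08 in the controls and 9.14, 8.83, 8.69 and 9.49 in the knockouts. Control 3 stood highest among the controls and just below knockout 3, the lowest knockout array. The means of Ccl5 were 8.13 ± 0.36 (SD, n = 4) and 9.04 ± 0.36 (n = 4; limma adjusted p = 0.0101), and its call held without any single array.

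Of the rodent ligands of Ccr1, Ccl6 rose and Ccl9 did not pass the test. Ccl6 read 8.93, 9.05, 9.17 and 9.24 in the controls and 9.68, 9.60, 10.18 and 10.17 in the knockouts. The controls of Ccl6 were tight, covering 0.31 log2 units, and all knockouts lay above them (limma adjusted p = 0.00327), with a change of 0.72 to 0.91 when any 1 array was left out. Ccl9 read 8.18, 8.24, 8.33 and 8.63 in the controls and 8.52, 8.24, 8.74 and 8.82 in the knockouts, and the groups overlapped. Its change was 0.23 ± 0.14 (SE; limma adjusted p = 0.379), with a 95% confidence interval of -0.06 to 0.53.

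Ccl24, an attractant of eosinophils, was the member that fell, and Ccl22, an attractant of T cells that carry Ccr4, did not pass the test. Ccl24 read 7.14, 6.97, 6.72 and 7.20 in the controls and 6.01, 6.17, 6.11 and 5.94 in the knockouts. All knockout arrays lay below all controls, the means were 7.01 ± 0.21 (SD, n = 4) and 6.06 ± 0.10 (n = 4), and the difference of 1.93-fold had the lowest adjusted p of the 10 members (limma adjusted p = 0.000433). Ccl22 read 5.15, 5.27, 5.72 and 5.53 in the controls and 5.76, 5.45, 6.07 and 6.14 in the knockouts. Knockout 2 lay within the range of the controls. The change of Ccl22 was 0.44 ± 0.16 (SE; limma adjusted p = 0.124), with a 95% confidence interval of 0.09 to 0.79, and it passed without knockout 2 (0.57, limma adjusted p = 0.0300) and without control 3 and knockout 2 together (0.67, limma adjusted p = 0.0128). No detection call comes with these values, and the Ccl22 mean lay below 6.08, the median of all values, in both groups. The Ccl24 mean lay above that median in controls and, at 6.06, just below it in knockouts.

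**Figure D2:**
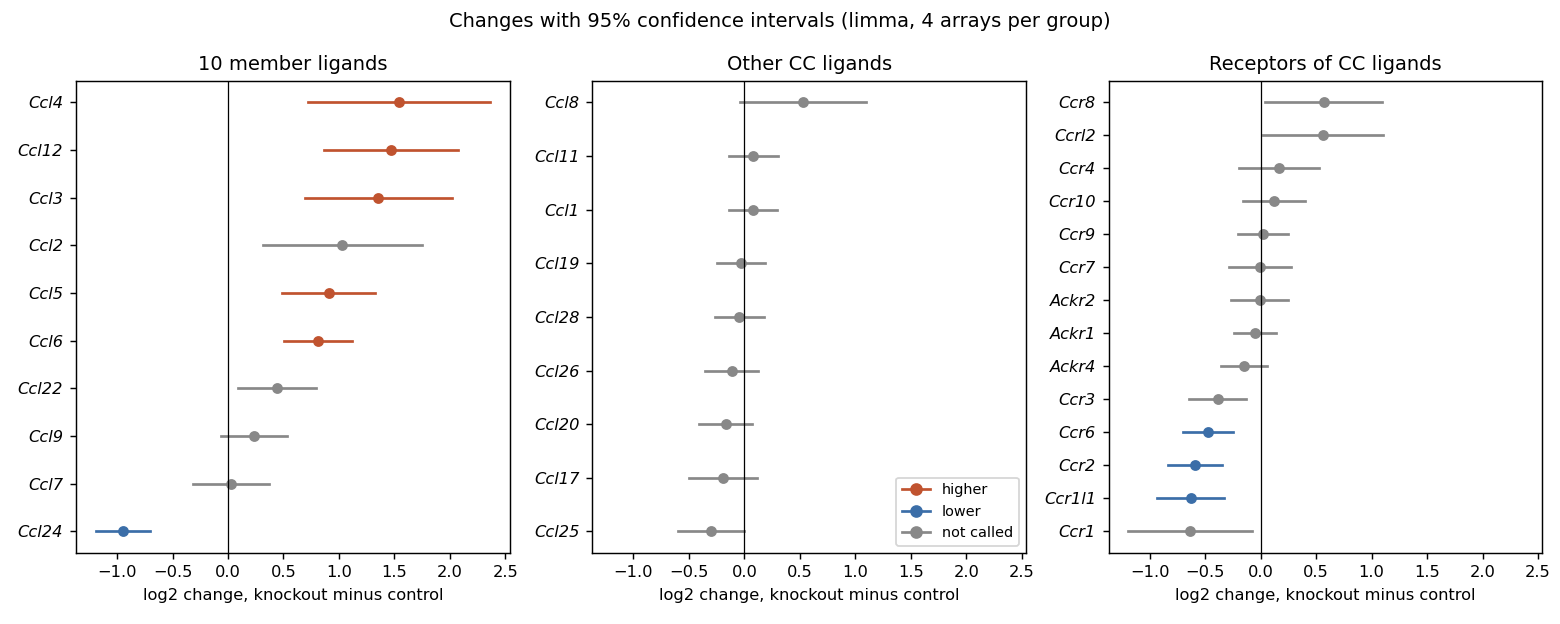
Log2 change, knockout minus control, with its 95% confidence interval from limma (4 arrays per group) for the 10 ligands, 9 other CC ligands and 14 receptors of CC ligands, ordered by change within a panel; colours mark genes higher, lower or not called at an adjusted p under 0.05. Ccl4, at 1.54, had the highest change of the 3 panels and Ccl24, at -0.95, the lowest, and no receptor was called higher.

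Differences between related ligands were tested within arrays, where the difference in log2 value between a pair of genes was compared between the groups by an exact permutation test over the 8 arrays. With 4 and 4 arrays the smallest two-sided p is 0.0286, and p-values were adjusted over the 5 pairs compared. Ccl6 rose by 0.58 ± 0.08 (SE) more than its neighbour Ccl9, and the within-array difference was larger in all 4 knockouts than in any control (exact permutation p = 0.0286, adjusted p = 0.0714). It ran from 0.61 to 0.83 in the controls and from 1.16 to 1.45 in the knockouts. The change of Ccl7 was lower than that of Ccl12 by 1.44 ± 0.38 (SE), again with no overlap between the groups (exact permutation p = 0.0286, adjusted p = 0.0714). Ccl2 exceeded Ccl7 by 1.01 ± 0.43 in change (exact permutation adjusted p = 0.143). The change of Ccl2 minus that of Ccl12 was -0.43 ± 0.21 (exact permutation adjusted p = 0.143), and that of Ccl3 minus that of Ccl4 was -0.19 ± 0.22 (exact permutation adjusted p = 0.457). None of the 5 pairs passed 0.05 after adjustment. Ccl6 with Ccl9 and Ccl7 with Ccl12 were at the smallest p this test can give. The adjustment still took them to 0.0714, so for these pairs the failure to pass decides nothing.

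**Figure D3:**
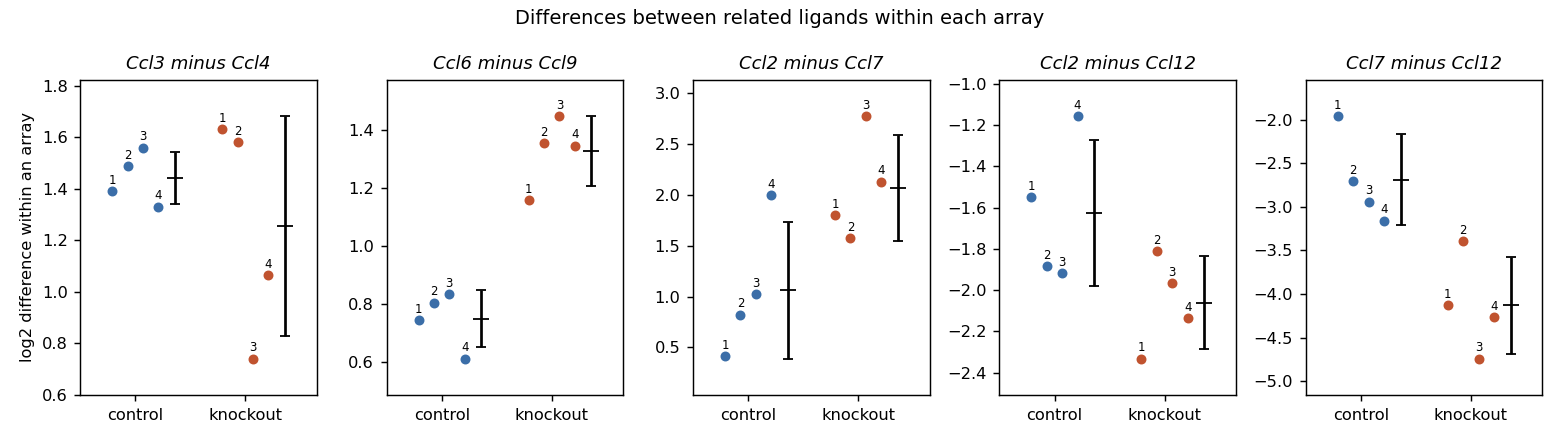
Difference in log2 value between a pair of related ligands within each array, 4 control (blue) and 4 knockout (orange), with sample numbers beside the points and the group mean ± SD as a bar; each panel has its own vertical axis. The groups are apart for Ccl6 minus Ccl9 and for Ccl7 minus Ccl12 and overlap in the other panels.

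Most of the ligands shared a pattern of spread within the groups. Control 4 was the highest control for 7 of the 10 members and control 1 the lowest for 7. Knockout 3 or knockout 4 was the highest knockout for 9 of 10. Deviations from the group means, taken over 8 arrays that share these few libraries, had a Pearson r of 0.94 between Ccl2 and Ccl4, 0.92 between Ccl3 and Ccl4 and 0.96 between Ccl6 and Ccl12. For Ccl5 the same measure was 0.13 with Ccl2 and 0.14 with Ccl4, and for Ccl24 it was 0.19 and 0.053.

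Immediate-early genes, which are switched on within minutes of stimulation or tissue handling, varied with several of the ligands inside the groups. The transcription factor gene Fos read 5.63, 5.73, 5.94 and 8.41 in the controls and 5.54, 6.12, 6.61 and 7.08 in the knockouts. Control 4 was far above the other controls, and 14 of the 21 listed immediate-early genes had their highest value of all 8 arrays there. Deviations of Fos had a Pearson r of 0.94 with Ccl2, 0.84 with Ccl4, 0.80 with Ccl3, 0.77 with Ccl9, 0.74 with Ccl12 and 0.61 with Ccl6 over the 8 arrays. With Ccl22, Ccl7, Ccl24 and Ccl5 the same measure was 0.45, 0.40, 0.36 and 0.087. Deviations of the cytokine gene Tnf had a Pearson r of 0.96 with Ccl2, 0.94 with Ccl12, 0.92 with Ccl4 and 0.90 with Ccl9. With Ccl3, Ccl6 and Ccl22 the r of Tnf was 0.86, 0.83 and 0.76. With Ccl7, Ccl5 and Ccl24 it was 0.35, 0.33 and 0.001. Control 4 had the highest deviation of Fos, at 1.98, against 0.74 for the next, in knockout 4. Its deviations of Ccl2, Ccl3 and Ccl4 were the highest too. How far these correlations rest on that array was not tested. Between the groups, Fos differed by -0.09 ± 0.53 (SE; limma adjusted p = 0.955), Jun by -0.53 ± 0.57 (0.694) and Egr1 by 0.33 ± 0.69 (0.861). Of the 21 genes 1 was higher, Egr2, by 1.04, and 2 were lower, the heat-shock genes Hspa1a, by 0.64, and Dnajb1, by 0.60. The log2 of the summed level of the list ran from 12.51 to 14.28 in controls and from 12.38 to 13.08 in knockouts. In a fit chosen after seeing the data, with the mean of Fos, Jun and Egr1 in each array as a covariate, the changes were 1.60 ± 0.21 (SE) for Ccl4, 1.40 ± 0.17 for Ccl3 and 1.08 ± 0.15 for Ccl2, which then passed (limma adjusted p = 0.00129).

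**Figure D4:**
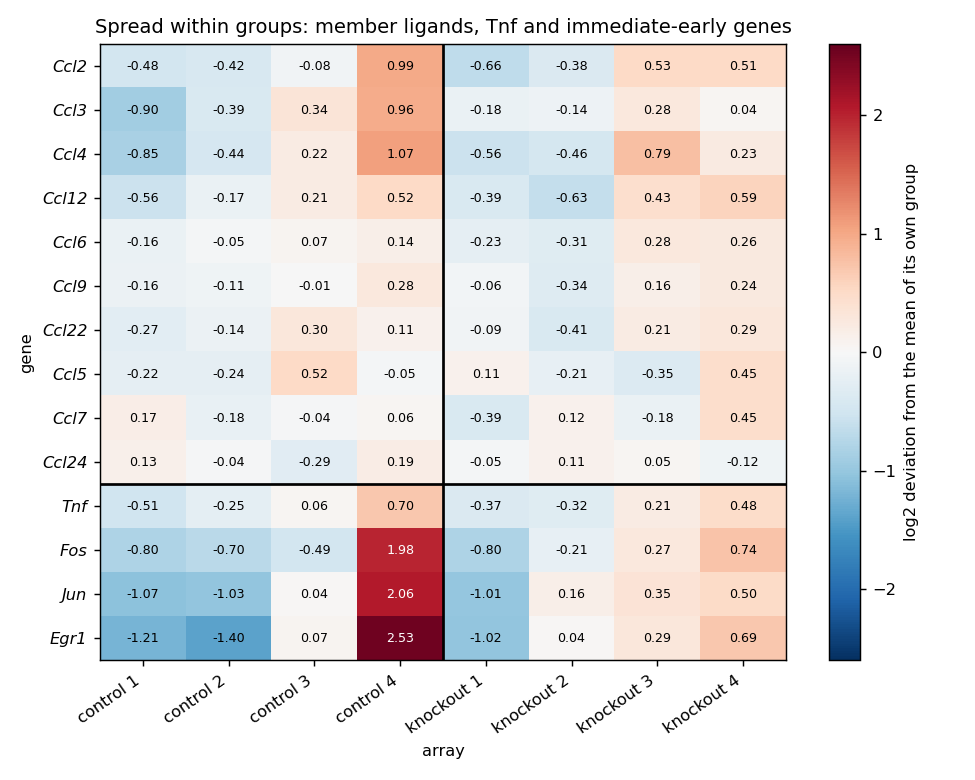
Log2 deviation of each array from the mean of its own group for the 10 ligands, Tnf and 3 immediate-early genes (rows) in 4 control and 4 knockout arrays (columns); red is above and blue below the group mean, and group differences are removed. Control 4 is high for Fos, Jun and Egr1 and, less so, for Ccl2, Ccl3 and Ccl4, and not for Ccl5.

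Other cell types that the sort could hold were followed through their markers. The neutrophil genes S100a8 and S100a9, which encode the subunits of calprotectin, were high and variable, from 9.86 to 12.59 and from 10.00 to 12.52 in controls, lowest in control 1, and from 11.20 to 12.12 and from 11.23 to 11.95 in knockouts. None of the 10 neutrophil, 10 T and NK cell, 4 B cell or 6 mast cell and basophil markers was called by limma, and 0, 3, 0 and 0 of them had an unadjusted p under 0.05. The T and NK cell markers with the lowest p were the granzyme gene Gzma, with a change of -0.41 (limma adjusted p = 0.0661), and Cd3g, which encodes a subunit of the T cell receptor complex, with a change of 1.02 (0.0859). Cd3e, of the same complex, had a change of 0.42 (limma adjusted p = 0.304). In the other lists with none called, the lowest p belonged to the neutrophil genes Ltf, with a change of -0.65 (limma adjusted p = 0.498), and Retnlg, with 0.79 (0.532), to the B cell genes Cd79b, with 0.35 (0.304), and Cd79a, with 0.28 (0.465), and to the mast cell genes Cma1, with -0.11 (0.589), and Tpsb2, with -0.054 (0.792). Of 6 monocyte markers 1 was lower, Ccr2, and of 7 dendritic cell markers 1 was lower. Brain-border macrophage markers had 5 lower, among them the mannose receptor Mrc1, by 1.55 ± 0.24 (SE), and 1 higher of 10. The log2 of the summed level of these 10 ran from 10.36 to 10.91 in controls and from 9.51 to 10.09 in knockouts. That of the 9 microglia markers was lower in every knockout as well, at 14.98 to 15.20 and 14.40 to 14.65. That of the neutrophil list ran from 12.33 to 14.42 and from 13.12 to 13.83. Within the groups, deviations of S100a8 and S100a9 had a Pearson r of 0.75 and 0.73 with Ccl3 and of 0.52 and 0.51 with Ccl4. With the other members the r of S100a8 lay between -0.33, for Ccl24, and 0.42, for Ccl12. The part of such cells in the changes of the ligands was not tested. Arrays give no true 0, so none of the markers can be called absent. Ly6c2 is not analysed here.

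None of the other CC ligands passed the test, and the receptors that passed were lower. Of 9 other CC ligands measured, 0 were called by limma and 1 had an unadjusted p under 0.05, Ccl25, with a change of -0.30 (limma adjusted p = 0.229). Ccl8, a further monocyte attractant, had a change of 0.53 with a 95% confidence interval of -0.04 to 1.10 (limma adjusted p = 0.276). The means of Ccl1, Ccl8, Ccl17, Ccl20, Ccl26 and Ccl28 lay below 6.08, the median of all values, in both groups. Without a detection call, an unchanged level of these cannot be told apart from a level too low to measure. Among 14 receptors, 3 were lower and 0 higher, with a median change of -0.031. Ccr2, the receptor of Ccl2, Ccl7 and Ccl12, went from 7.12 ± 0.06 (SD, n = 4) to 6.52 ± 0.23 (n = 4; limma adjusted p = 0.00552). Ccr6, the receptor of Ccl20, fell by 0.47 and Ccr1l1, a gene related to Ccr1, by 0.63. The Ccr1l1 means, 5.73 in controls and 5.10 in knockouts, lay below the median of all values too. Ccr1 and Ccr3, named because they are receptors of members, had changes of -0.64 (limma adjusted p = 0.166) and -0.39 (0.0616).

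Genes that act before and after the ligands changed in both directions. Of 17 cytokines and receptors that can induce CC ligands, 4 were higher and 3 lower. Csf1, the growth factor of microglia, went from 7.16 ± 0.57 (SD) to 9.16 ± 0.14. The cytokine Il1b rose by 1.69 ± 0.22 (SE), Tnf by 1.22 ± 0.25 and Tlr2, a sensor of bacterial lipopeptides, by 0.80 ± 0.11. The interferon-gamma receptor Ifngr1 fell by 0.62 ± 0.09, the receptor Tlr4 by 0.50 and the cytokine Il6 by 0.50. The groups of Il6 overlapped, and its means, 5.68 in controls and 5.18 in knockouts, lay below 6.08, the median of all values. Tnf read 6.53, 6.80, 7.10 and 7.75 in the controls and 7.89, 7.94, 8.48 and 8.74 in the knockouts, with no overlap. Among 28 regulators of CC ligand transcription, 4 were higher and 3 lower. Bcl3, a nuclear partner of NF-kB, rose by 1.19 ± 0.17, and the NF-kB subunits Relb and Nfkb2 by 0.31 and 0.32. The subunit Rel fell by 0.58 ± 0.11, and Rela did not pass the test (change -0.085, limma adjusted p = 0.686). The interferon regulatory factors Irf4 and Irf5 fell by 0.69 and 0.46. Signalling from chemokine receptors had 7 lower and 2 higher of 34. Elmo1, which links receptors to Rac, fell by 0.96 ± 0.14, the G protein subunit Gng2 by 0.70 and the arrestin Arrb1 by 0.56, and the kinase Fgr rose by 1.14 ± 0.18. The median change was -0.044 for the inducers, -0.061 for the regulators and -0.21 for the signalling genes.

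The genes most like each called ligand were taken as the 3 with the highest Pearson r over the 8 arrays, a measure that holds the difference between genotypes as well as the spread within them. Ccl4 was most like Tnf (0.97), Ccl3 (0.97) and Ccl2 (0.96). Ccl3 was most like Gatd3a (0.98), Pgp (0.97) and Ccl4. Ccl5 was most like Cxcl10 (0.98), an interferon-induced CXC chemokine that itself rose by 1.11, then Bdh2 and P2ry14 (both 0.97). Ccl6 was most like Ebi3 (0.996), Rps27l and Tomm20 (both 0.99). For Ccl12 the genes were Atp5l, Zfp593 and Ccl6 (all 0.99). Ccl24 was most like Sfmbt1, Cass4 (both 0.99) and Txnip (0.98), and these 3 were lower, Cass4 by 1.26 and Txnip by 1.02.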

How the data were processed

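Log2 expression per probe set was deposited for 8 arrays; per the submitters' processing notes, the authors' log2 values come from RMA. No source used here names the software or chip library, and the log2 base was read from the range of 2.04 to 13.99. Per the labels' protocols, RNA of sorted cells was amplified before labelling, which can add noise. Because RMA equalises the arrays, a shift of every gene at once is invisible, and dim genes show smaller changes than they had. Of 28874 probe sets 21789 had 1 symbol in the platform annotation, and for each of 19938 genes the one with the highest mean was used. Symbols were checked by gene number against RefSeq's GRCm38.p6 table, and 0 changed.

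Knockout was compared with control by limma 3.58.1 (lmFit and eBayes under R 4.3.3, two-sided, with neither filter nor covariate), with Benjamini-Hochberg adjustment over all genes. Alternatives are given in the closing section. Related pairs were compared by exact permutation with scipy 1.17.1. The fit was tested on simulated data. The rule for names took the 10 members, Hsd17b4, sex-check and marker genes, up to 4 called genes of each list by adjusted p (or 2 where none passed) and the 3 genes most like each called member. Ccr1 and Ccr3 were added as receptors of members. Relb, Nfkb2, Rela, Tlr4 and Il6 were named after their values were seen. The members, lists, motifs and pairs were chosen with earlier results of these data known. Figures used matplotlib 3.10.9.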

Additional observations from a re-analysis of the deposited data

Results flagged for a closer look

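No ligand had an array that stood apart from the other 3 of its group by Dixon's test at the 95% level, in 20 groups. Over all the genes put to this test there were 130 groups, of which chance flags about 1 in 20, and 5 were flagged. Fos was at 8.41 in control 4, against 5.94 in the next control, and these values are set beside those of Ccl2, Ccl3 and Ccl4 in the report. In control 3, Elmo1 was at 10.52 and Flt1, a receptor of vascular endothelial growth factor, at 6.53. In knockout 3, Ccr6 was at 7.59 and Irf4 at 5.62. The Ccr6 and Irf4 arrays lay on the far side from the controls, while both flagged genes of control 3 lay toward the knockouts.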

How the results depend on the processing

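Ccl5, Ccl6, Ccl12 and Ccl24 kept their direction and their call under all 19 alternatives. The filter on dim genes left out Ccl22. With an intensity trend and a robust prior, Ccl3 (change 1.36, limma adjusted p = 0.0930) and Ccl4 (1.54, 0.135) were not called and 3 ligands were higher. Quantile normalization again ended the call of Ccl3 (1.07, limma adjusted p = 0.0749). Without control 1, control 3 and knockout 2 together, Ccl3 (1.12) and Ccl4 (1.38) were not called, 3 ligands were higher, and 649 genes in all were higher and 494 lower, against 1073 and 832. Ccl22 was called without control 3 and knockout 2 together (0.67). With Fos, Jun and Egr1 as a covariate, chosen after seeing the data, Ccl2 was called (1.08). Ccl7, near 0 throughout, was -0.053 with array weights and -0.028 without control 3 and knockout 2.

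With 1 array left out, changes ranged from 0.86 to 1.36 for Ccl2, 1.06 to 1.67 for Ccl3, 1.26 to 1.90 for Ccl4, -0.13 to 0.15 for Ccl7 and 0.34 to 0.57 for Ccl22. From 3 ligands (without control 2) to 6 were higher, and from 507 (without knockout 3) to 960 genes in all were lower, with 544 without control 1 and 517 without control 2. No permutation p under 0.05 is possible for the pairs with an array left out. With the replicate number as a block, Ccl2 (1.03, limma adjusted p = 0.00349) and Ccl22 (0.44, 0.0311) were called as well and 7 ligands were higher. Same-numbered arrays had correlated deviations over all genes of -0.065 to 0.16, and 1 of 4 matched its own number best, so the numbers were not taken as pairs. Ccl2 and Ccl9 had arrays 1 and 2 below and array 4 above the group mean in both groups. For Ccl2 these deviations were -0.48, -0.42 and 0.99 in controls and -0.66, -0.38 and 0.51 in knockouts. Ccl3, Ccl4, Ccl6, Ccl12 and Ccl22 had arrays 1 and 2 below and arrays 3 and 4 above it in both groups. Ccl5, Ccl7 and Ccl24 did not share this order. With the block, the SE went from 0.28 to 0.12 for Ccl12 and from 0.38 to 0.19 for Ccl4. It was 0.19 in both fits for Ccl5, and went from 0.11 to 0.12 for Ccl24. Why the calls changed was not tested. No array background came with the values, so low levels such as those of Ccl22 and, in knockouts, Ccl24 cannot be set against it.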

Other observations

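Genes that hold, release or cut CC ligands outside the cell were called in both directions, 4 higher and 1 lower of 15, where 9.55% of all genes were called in either direction. Chemokines bind the sugar chains of proteoglycans such as the syndecans, and metalloproteases can cut several of them. The syndecan Sdc3 rose by 1.69 ± 0.21 (SE; limma adjusted p = 0.000574, n = 4 and 4). It read 7.11, 7.14, 7.89 and 6.86 in the controls and 8.68, 8.61, 9.11 and 9.35 in the knockouts, and the groups did not overlap. Sdc4 rose by 0.60 ± 0.14, the macrophage elastase Mmp12 by 1.23 ± 0.22 and the membrane-bound Mmp14 by 0.76 ± 0.17. Mmp2, a gelatinase, fell by 0.71 ± 0.20 (limma adjusted p = 0.0477). Dpp4, a peptidase that trims the start of several CC ligands, had a change of -0.011 with a 95% confidence interval of -0.31 to 0.29. Mmp2 and Dpp4 were named after their values were seen.

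Markers of other brain cells were mostly not called. Of 6 astrocyte markers 1 was higher, Gfap, by 1.28, and of 5 oligodendrocyte markers 1 was higher, Mbp, by 0.59. None of 5 neuron markers was called by limma, and 1 had an unadjusted p under 0.05, Snap25, with a change of 0.35 (limma adjusted p = 0.149), followed by Syt1, with -0.099 (0.649). Of 6 endothelial and pericyte markers Flt1 was higher, by 1.99, and Pecam1 fell by 1.56 ± 0.21 (SE).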
